A study of Mus musculus with 2 samples.

Results

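The genes examined here encode the cellular defence against peroxides and electrophiles, namely the transcription factor NRF2 (gene Nfe2l2) with its inhibitor Keap1, the glutathione system and the thioredoxin system. Members were taken by gene name from the protein-coding genes of the splenic count table: glutathione S-transferases (GSTs) of the classes alpha, mu, pi, theta, zeta, omega and kappa, all peroxiredoxins, all glutathione peroxidases, and 22 further named genes. This gave 52 of 22791 genes, or of 15293 protein-coding genes. At least 20 counts over both libraries were reached by 48 of them, and only these 48 are given a ratio. Spleens came from male C57BL/6J mice aged 9 to 11 weeks that had been fasted for 10 h and then received acetaminophen (APAP) intraperitoneally at 300 mg/kg, or 0.9% NaCl as vehicle (ctrl). All mice were analysed at 30 h. RNA from 5 ctrl mice made 1 pool and RNA from 11 APAP mice the other, and each pool gave 1 library. The comparison asks how mRNA accumulation in the spleen differs while the liver undergoes APAP-induced acute liver injury (ALI).

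As background, NRF2 is held at low levels by KEAP1, an adaptor of a ubiquitin ligase that senses electrophiles through reactive cysteines. Once KEAP1 is modified, NRF2 accumulates and binds antioxidant response elements (AREs) in front of genes for glutathione synthesis, NADPH supply, conjugation and peroxide reduction. Reduced glutathione feeds the glutathione peroxidases and transferases, whereas thioredoxin feeds most peroxiredoxins, and both systems draw their electrons from NADPH. In the spleen, such genes serve macrophages that degrade erythrocytes as well as maturing erythrocytes and granulocytes.

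The ctrl library held 2735788 counts and the APAP library 2890947. A count of 0 allowed up to 1.10 and 1.04 CPM, respectively, where CPM is the count of a gene as a share of all counts of its library, on the usual fixed scale. A ratio is the count in APAP over that in ctrl, divided by 1.11 to correct for sequencing depth. Its interval is an exact 95% interval that covers counting error only. With 1 library per group there was no replicate check and no test of the treatment, and differences between mice or preparations are not part of any interval. In bulk tissue, fewer cells of a type and less RNA per cell cannot be told apart. Both libraries held markers of cell types found in spleen, with all 11 B cell, all 16 T cell and all 16 red pulp macrophage markers detected. However, 32 marker genes of the pancreas, among them the islet hormone genes Ins1, Ins2 and Gcg, held 7.54% of all counts in ctrl and 2.29% in APAP (ratio 0.289, interval 0.286 to 0.291). Leaving them out of the library totals took the median log2 ratio of the members from 0.32 to 0.24, where the scaling used here gave 0.25. This step only rescaled the libraries and removed no reads of the members.

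As a set, the antioxidant genes were slightly higher in the APAP library. Their counts added up to 10782 in ctrl and 14385 in APAP, which is 0.394% (Wilson 95% interval 0.387 to 0.402) and 0.498% (0.490 to 0.506) of each library. The ratio of these sums was 1.20 (1.17 to 1.23). Among the 48 measured members, 34 lay above 1 and 14 below, and the median log2 ratio was 0.25 compared with 0.02 over all 12929 genes with at least 20 counts. The interval lay above 1 for 19 members (39.6%) and below 1 for 3 (6.25%), against 9.13% and 6.57% of all genes. Differences were small. Only 5 members were at least 1.5-fold higher with an interval above 1 (Gpx3, Gsr, Gsto1, Gss and Srxn1), which is 10.4% of those measured against 3.67% of all genes, and 1 member, Gstz1, was at least 1.5-fold lower, where the background was 3.08%. A single member, Srxn1, reached a ratio of 2, as did 1.39% of all genes.

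**Figure D1:**
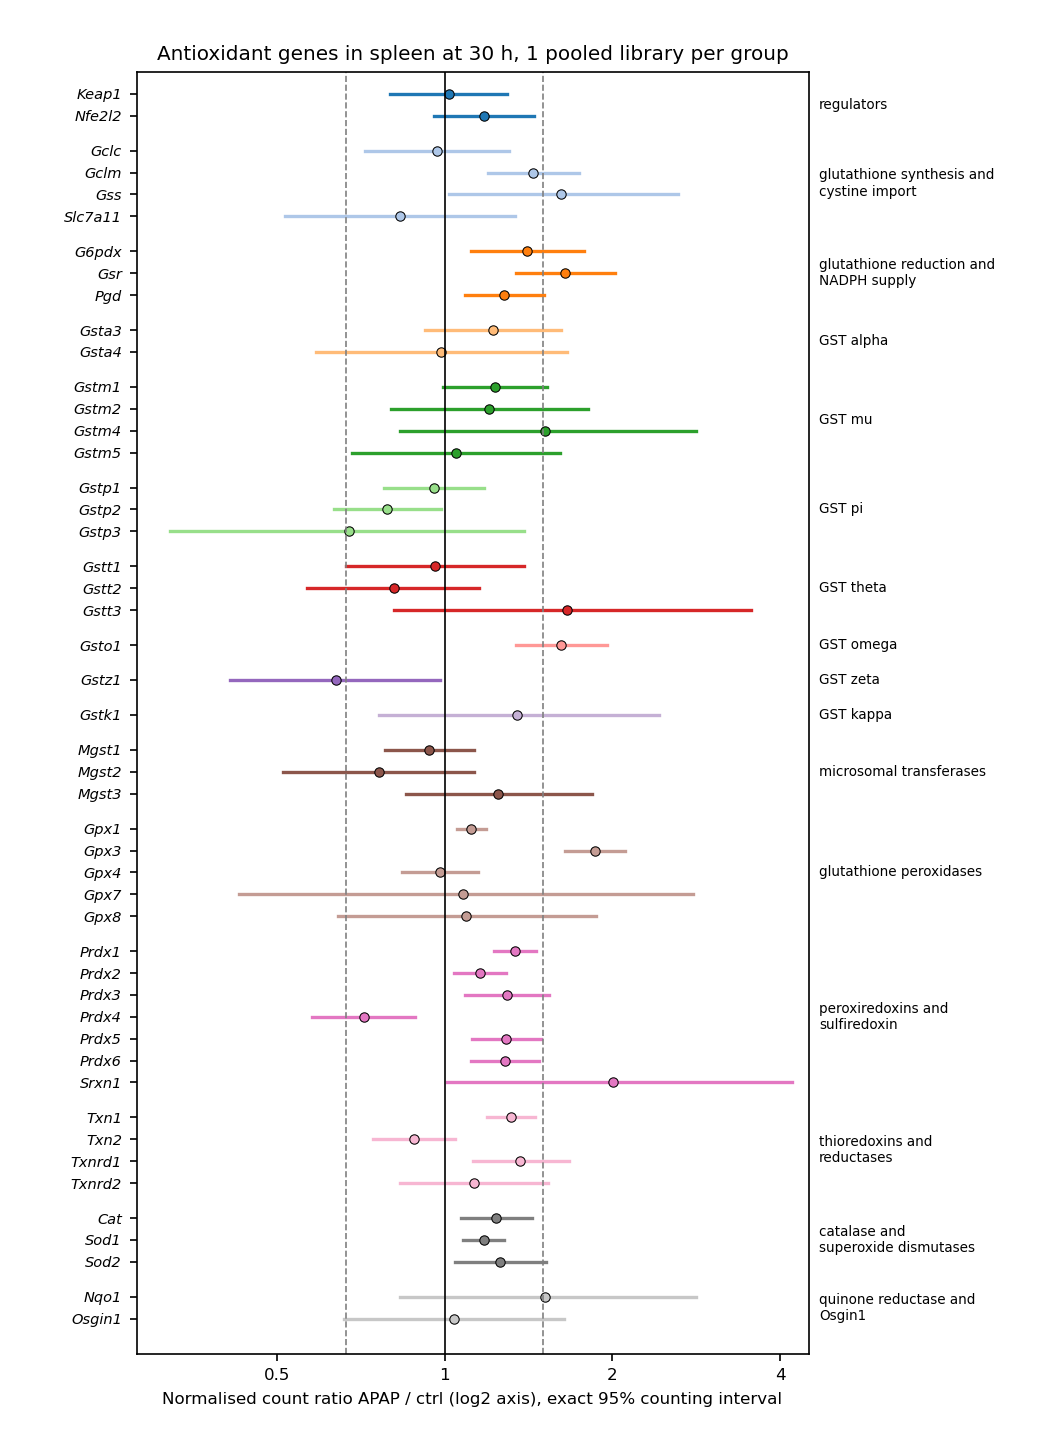
Ratio of normalised counts, APAP over ctrl, of the 48 measured antioxidant genes on a log axis, ordered by role. Points are ratios, bars are exact 95% intervals of counting error, and dashed lines mark 1.5-fold. Most peroxiredoxins, thioredoxins and NADPH-linked reductases sit to the right of 1, whereas the pi-class transferases and Prdx4 sit to the left.

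Abundant genes have narrow intervals and are therefore called more often, so members were also set against genes above the same minimum of counts. With at least 300 counts over both libraries there were 25 members, of which 17 (68.0%) had an interval above 1 and 2 (8.0%) one below 1. Among all 3476 genes above that minimum the shares were 16.2% and 10.9%. The median log2 ratio was 0.33 for these members and 0.02 for these genes. The upward shift was thus present above a common minimum of counts as well, although depth was not matched beyond that minimum. No ratio of these 25 members reached 2.

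**Figure D2:**
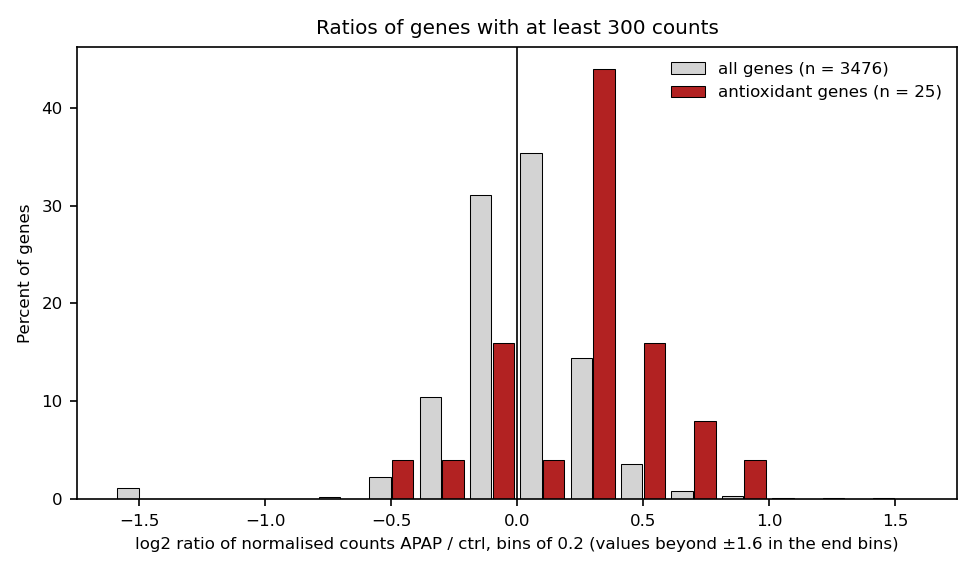
Distribution of the log2 ratio APAP over ctrl among the 3476 genes with at least 300 counts (grey) and among the 25 antioxidant genes of that depth (red), each as a percentage of its own set, with values beyond the outermost bins counted in those bins. The median lies at 0.02 for all genes and at 0.33 for the members.

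Promoters were read to show which members carry a core ARE near their start. The letters TGACNNNGC, or GCNNNGTCA on the other strand, were searched in the 250 bases before each RefSeq start site (build GRCm38.p6). Of the 46 members with a promoter sequence, 10 (21.7%) held a match, compared with 1641 of 12048 protein-coding genes of the count table (13.6%) and 3338 of 32851 promoters in all (10.2%). These 10 were G6pdx, Gclm, Gsta3, Gstm5, Gstm7, Mgst1, Nfe2l2, Prdx1, Sod1 and Txnrd1. For the 7 of them with at least 300 counts, the match and its neighbourhood are printed 5′ to 3′ on the strand of the gene, with the match in capitals.
G6pdx: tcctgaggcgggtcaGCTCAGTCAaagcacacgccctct
Gclm: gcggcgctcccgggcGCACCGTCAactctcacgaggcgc
Mgst1: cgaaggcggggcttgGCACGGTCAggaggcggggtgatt
Nfe2l2: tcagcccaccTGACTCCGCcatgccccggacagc
Prdx1: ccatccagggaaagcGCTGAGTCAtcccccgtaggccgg
Sod1: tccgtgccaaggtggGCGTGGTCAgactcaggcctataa
Txnrd1: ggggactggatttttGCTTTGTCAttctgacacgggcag
The G6pdx stretch lies at chrX:74428914-74428952 on the minus strand, that of Gclm at chr3:122245408-122245446 on the plus strand, and that of Mgst1 at chr6:138140456-138140494 on the plus strand. For Nfe2l2 the stretch is at chr2:75704880-75704913 on the minus strand, for Prdx1 at chr4:116685451-116685489, for Sod1 at chr16:90220691-90220729 and for Txnrd1 at chr10:82859099-82859137, the latter 3 on the plus strand. By the gene bounds of GENCODE M21, the stretches of G6pdx, Mgst1 and Txnrd1 lie inside the gene and not in front of it. They precede a RefSeq start site downstream of the outermost start, which for Txnrd1 is at 82833951. Read in the orientation of the motif, the match is TGACTGAGC in G6pdx, TGACTCAGC in Prdx1 and TGACAAAGC in Txnrd1. The Prdx1 match is the only one of the 10 that also holds TGANTCA, the letters bound by AP-1 factors. Among the 7 printed genes, the interval of the ratio lay above 1 for G6pdx, Gclm, Prdx1, Sod1 and Txnrd1 and included 1 for Mgst1 and Nfe2l2. This is 5 of 7, where 17 of all 25 members of that depth had such an interval. Of the 3 others, Gsta3 and Gstm5 had an interval that included 1 and Gstm7 stayed under 20 counts. A match of letters is a description and not a bound site.

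The regulators themselves did not differ beyond counting error with the scaling used here. Nfe2l2 gave 167 counts in ctrl and 218 in APAP, with a ratio of 1.17 (0.956 to 1.45), while by library totals the interval lay above 1 (1.005 to 1.52). Keap1 gave 131 and 148 counts, with a ratio of 1.02 (0.798 to 1.30) that ranged from 0.997 to 1.08 over the scalings tried. NRF2 is regulated mainly through protein stability, which counts of its mRNA do not capture.

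Among the genes of glutathione synthesis and cystine import, the interval lay above 1 for Gclm and Gss and included 1 for Gclc and Slc7a11. Glutamate-cysteine ligase makes the dipeptide precursor, with Gclc as its catalytic and Gclm as its modifier subunit. From ctrl to APAP, Gclm went from 186 to 298 counts (1.44, 1.20 to 1.74), while Gclc gave 91 and 98 (0.969, 0.721 to 1.30, on either side of 1 depending on the scaling). Glutathione synthetase (Gss, chr2:155563181-155592810 on the minus strand, mm10), which completes the tripeptide, gave 30 and 54 counts (1.62, 1.02 to 2.62), with an interval that included 1 by TMM factors (0.998 to 2.57). The cystine importer subunit Slc7a11, a widely used NRF2 target, was not detectably higher, with 40 and 37 counts (0.833, 0.518 to 1.34). Gclm and Gss share exonic bases with genes on the opposite strand, namely Gm17494 (163 and 200 counts) and Acss2 (71 and 56 counts). As the strand setting of the counting is not given in the sources used here, reads of such partners cannot be told apart.

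Enzymes that keep glutathione reduced were higher throughout, with 3 of 3 intervals above 1 and a summed ratio of 1.41 (1.27 to 1.58). Glutathione reductase (Gsr, chr8:33652523-33698163 on the plus strand), which regenerates glutathione with NADPH, rested on 151 counts in ctrl and 276 in APAP, a ratio of 1.65 (1.34 to 2.02). Both NADPH-forming dehydrogenases of the pentose phosphate pathway were also higher in APAP. Glucose-6-phosphate dehydrogenase (G6pdx) gave 123 and 192 counts (1.40, 1.11 to 1.78) and phosphogluconate dehydrogenase (Pgd) 260 and 370 (1.28, 1.09 to 1.51). G6pdx overlaps exons of Ikbkg on the opposite strand, a gene with 69 and 89 counts.

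The GSTs of the classes alpha to kappa, which conjugate electrophiles with glutathione, showed no common direction. They are cytosolic enzymes except for kappa-class Gstk1, an enzyme of mitochondria and peroxisomes that is counted with them. Of 18 genes, 15 were measured, 8 above and 7 below 1, with a median log2 ratio of 0.07. By contrast, the 33 measured members outside this family had a median of 0.31, and 26 of them lay above 1. The summed ratio of these 18 GSTs was 1.09 (1.01 to 1.18). Only Gsto1 had an interval above 1 (6.67% of those measured, against 9.13% of all genes), and Gstp2 and Gstz1 had one below 1 (13.3%, against 6.57%). With 15 mostly sparse genes, these shares are near the background.

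Gsto1 (chr19:47854970-47864790 on the plus strand) encodes the omega-class enzyme, which carries a cysteine in its active site and also reduces dehydroascorbate. It gave 176 counts in ctrl and 317 in APAP (1.62, 1.34 to 1.96). Gstz1 (chr12:87147165-87164723 on the plus strand), the maleylacetoacetate isomerase of tyrosine breakdown, gave 55 and 39 counts (0.638, 0.412 to 0.980). Its interval reached 1 under part of the scalings, and its exons overlap those of Pomt2 (17 and 28 counts) on the opposite strand. These members of different GST classes thus stood on opposite sides of 1. The quotient of Gsto1 over Gstz1, which needs no scaling, went from 3.20 to 8.13, a 2.54-fold difference (1.58 to 4.10). This pair was chosen after its values had been seen.

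Mu-class GSTs lie side by side on chromosome 3, between 107895821 and 108044894 (mm10). All 4 measured members were above 1, and every interval included 1. Gstm1 gave 152 and 208 counts (1.23, 0.994 to 1.53), and Gstm2 gave 45 and 60 (1.20, 0.802 to 1.81). For Gstm4 the counts were 19 and 32 (1.52, 0.833 to 2.83) and for Gstm5 43 and 50 (1.05, 0.682 to 1.61). Their low counts leave room for a difference in either direction, although the class sum had a ratio of 1.20 (1.02 to 1.41), whose interval included 1 with TMM factors (0.997 to 1.38). The 3 others stayed under 20 counts, with 4 and 0 for Gstm3, 1 and 0 for Gstm6, and 1 and 2 for Gstm7.

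Pi-class GSTs, which lie between 4035407 and 4059569 on chromosome 19, were the only class of several genes with no member above 1, although Gstp1 passed 1 under some scalings (0.940 to 1.02). Gstp1 gave 185 and 197 counts (0.958, 0.780 to 1.18), Gstp2 gave 178 and 156 (0.789, 0.632 to 0.983) and Gstp3 gave 20 and 15 (0.675, 0.322 to 1.39). Gstp1 and Gstp2 are nearly identical copies, and the last 500 bases of the Gstp1 transcript share 78.0% of their 50-base words with another gene. The pseudogene Gstp-ps, which shares these words as well, took 176 and 221 counts. Summed with it, Gstp1 and Gstp2 had a ratio of 0.958 (0.851 to 1.08), so the lower value of Gstp2 alone is uncertain.

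The remaining transferases gave intervals that included 1. Alpha-class Gsta3 had 90 and 122 counts (1.22, 0.922 to 1.62) and Gsta4 31 and 34 (0.987, 0.589 to 1.66). In the theta class, Gstt1 had 60 and 64 counts (0.960, 0.664 to 1.39), Gstt2 70 and 63 (0.810, 0.567 to 1.16) and Gstt3 13 and 24 (1.66, 0.813 to 3.55). Kappa-class Gstk1 had 22 and 33 (1.35, 0.764 to 2.43). The membrane-bound microsomal transferases, which are of a separate protein family, summed to a ratio of 0.953 (0.819 to 1.11). Among them Mgst1 had 232 and 242 counts (0.939, 0.781 to 1.13), Mgst2 59 and 50 (0.763, 0.513 to 1.13) and Mgst3 49 and 68 (1.249, 0.852 to 1.84). Sequence shared at the 3′ end makes Gstt3 and Gstm1 uncertain, with 26.8% and 23.0% of 50-base words found in other genes.

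Glutathione peroxidases reduce hydrogen peroxide and lipid peroxides with glutathione. The cytosolic selenoprotein Gpx1 was the most abundant member of the whole set, with 2027 counts or 741 CPM in ctrl and 2515 counts or 870 CPM in APAP (1.12, 1.05 to 1.18). Gpx3 (chr11:54902453-54910377 on the plus strand), the secreted enzyme of plasma, rested on 380 counts or 139 CPM in ctrl and 785 counts or 272 CPM in APAP. Its ratio of 1.86 (1.64 to 2.11) was the member ratio whose interval lay farthest above 1. Consequently, the count of Gpx3 relative to Gpx1 went from 0.187 to 0.312, which is 1.66-fold (1.45 to 1.91). Gpx4, which protects membranes from lipid peroxidation, did not differ beyond counting error (309 and 337 counts, 0.982, 0.839 to 1.15). The pseudogene Gpx4-ps2 shares 89.9% of the 50-base words of the Gpx4 end and took more counts than Gpx4 itself (376 and 453). Their sum had a ratio of 1.04 (0.936 to 1.15). Gpx7 (10 and 12 counts, 1.08, 0.428 to 2.79) and Gpx8 (28 and 34, 1.09, 0.643 to 1.87), both of the endoplasmic reticulum, were too sparse to resolve a difference of this size.

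**Figure D3:**
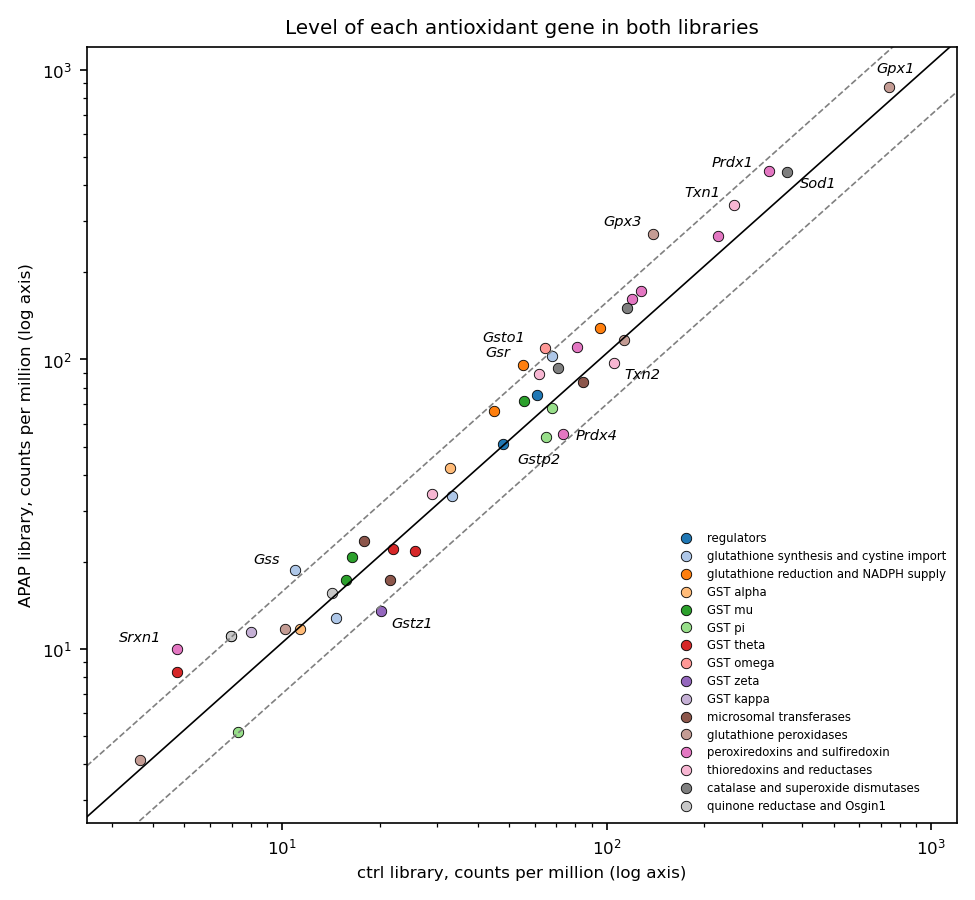
Level in CPM of the 48 measured antioxidant genes in the ctrl library (horizontal) and the APAP library (vertical), both on log axes and coloured by role. The solid line marks equal normalised counts and the dashed lines a 1.5-fold difference. Gpx1 is the most abundant gene (741 and 870), and Gpx3 (139 and 272) lies above the upper dashed line.

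Peroxiredoxins, which reduce peroxides by way of a reactive cysteine, were higher in APAP with a single exception. The cytosolic Prdx1 gave 868 counts in ctrl and 1291 in APAP (1.34, 1.23 to 1.46). Prdx2, abundant in erythrocytes, gave 601 and 773 (1.16, 1.04 to 1.29). Mitochondrial Prdx3 gave 222 and 319 (1.29, 1.09 to 1.54). Prdx5, found in several compartments, and Prdx6, which pairs peroxidase with phospholipase activity, had similar ratios. Prdx5 gave 327 and 469 counts (1.29, 1.12 to 1.49) and Prdx6 349 and 498 (1.28, 1.12 to 1.48). The interval of all these 5 genes lay above 1. Exons of Prdx2 overlap those of Junb (199 and 209 counts) and exons of Prdx5 those of Trmt112 (80 and 72 counts), both on the opposite strand. The end of Prdx1 shares 21.3% of its 50-base words with other genes, and with its pseudogenes Gm21399 and Gm7204 added its ratio was 1.33 (1.22 to 1.45).

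Prdx4 (chrX:155323918-155340754 on the minus strand) was the exception. It is the peroxiredoxin of the endoplasmic reticulum, where it supports oxidative protein folding in secretory cells, and gave 201 counts in ctrl and 160 in APAP (0.716, 0.578 to 0.886). The quotient of Prdx1 over Prdx4 went from 4.32 to 8.07, a 1.87-fold difference (1.48 to 2.36). Pancreas genes, from a tissue rich in endoplasmic reticulum, were also lower in APAP (0.289), while the summed plasma cell markers were near 1 (1.03, 0.986 to 1.07). Their part in the result was not tested. Sulfiredoxin (Srxn1, chr2:152105516-152111376 on the plus strand), which repairs overoxidised peroxiredoxins, had the highest ratio of the set, but on 13 and 29 counts (2.01, 1.01 to 4.21). Depending on the scaling, this interval included 1. Prdx6b gave 0 and 3 counts.

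In the thioredoxin system, the cytosolic genes had higher ratios than their mitochondrial counterparts, and for thioredoxin itself the difference exceeded counting error. Cytosolic thioredoxin (Txn1) gave 675 counts in ctrl and 986 in APAP (1.31, 1.19 to 1.45), whereas mitochondrial thioredoxin (Txn2) gave 288 and 282 (0.881, 0.745 to 1.04). The quotient of Txn1 over Txn2 thereby went from 2.34 to 3.50, which is 1.49-fold (1.23 to 1.81). Txnrd1, the cytosolic selenoenzyme that reduces thioredoxin, gave 169 and 257 counts (1.37, 1.12 to 1.67), and the mitochondrial Txnrd2 gave 79 and 99 (1.13, 0.831 to 1.54). For the reductases the quotient differed by 1.21-fold with an interval that included 1 (0.838 to 1.75). The order was not one of compartment throughout, since mitochondrial Prdx3 was higher relative to Txn2 by 1.47-fold (1.15 to 1.87).

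Superoxide dismutases and catalase, which convert superoxide and hydrogen peroxide without glutathione or thioredoxin, were also higher throughout. Cytosolic Sod1 gave 985 and 1287 counts (1.18, 1.08 to 1.28), mitochondrial Sod2 193 and 270 (1.26, 1.04 to 1.52) and peroxisomal catalase (Cat) 316 and 435 (1.24, 1.07 to 1.44). The quotient of Sod2 over Sod1 differed by 1.07-fold (0.870 to 1.32). Sod1 shares 30.2% of the 50-base words of its end with the pseudogene Gm8566 (296 and 395 counts), and their sum gave the same ratio of 1.18 (1.10 to 1.27). The prototypical NRF2 target Nqo1, a quinone reductase, was sparse in spleen, with 19 and 32 counts (1.52, 0.833 to 2.83). Osgin1, an oxidative stress-induced growth inhibitor, had 39 and 45 (1.04, 0.661 to 1.64).

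**Figure D4:**
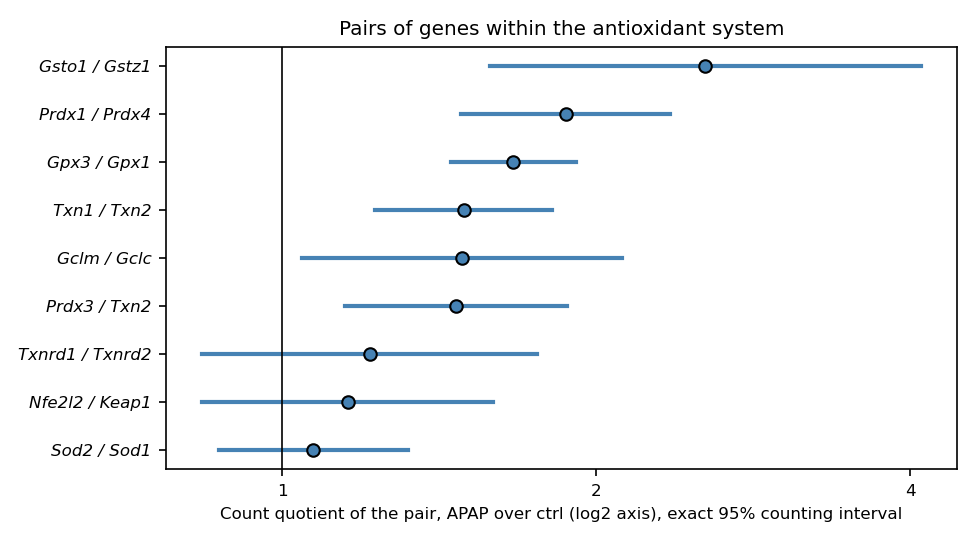
Quotient of counts of the first over the second gene of 9 pairs in APAP, divided by that in ctrl, on a log axis with 95% intervals of counting error. The scaling of the libraries cancels in these values. The interval lies above 1 for 6 pairs, with Gsto1 over Gstz1 highest at 2.54, and includes 1 for Txnrd1 over Txnrd2, Sod2 over Sod1 and Nfe2l2 over Keap1.

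Within the subunit pairs, Gclm relative to Gclc went from 2.04 to 3.04, a 1.49-fold difference (1.04 to 2.12). Nfe2l2 relative to Keap1 differed by 1.16-fold with an interval that included 1 (0.837 to 1.59). All 9 pairs were chosen after their values had been seen.

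The 5 members with the most counts, Gpx1, Sod1, Prdx1, Txn1 and Prdx2, together held 47.8% of the counts of the set in ctrl and 47.6% in APAP. The quotients above describe single pairs, chosen after their values had been seen, and not the set. The summed ratio was 1.20 (1.15 to 1.26) for glutathione peroxidases, 1.24 (1.17 to 1.30) for peroxiredoxins with sulfiredoxin, 1.21 (1.12 to 1.30) for thioredoxins with their reductases, and 1.20 (1.12 to 1.28) for catalase with the dismutases. It was higher for glutathione reduction and NADPH supply (1.41) and lower for the 18 GSTs (1.09), the microsomal transferases (0.953) and, among the GSTs, the pi class (0.865).

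Further genes of these pathways, or linked to them, were described from 3 additional lists. Of 29 other NRF2-linked genes, 27 were measured, 20 of them above 1 (74.1%, against 53.4% of all genes). Their median log2 ratio was 0.22. The interval lay above 1 for 10 (37.0%, against 9.13%) and below 1 for 1 (3.70%, against 6.57%). Among all genes with at least 300 counts, which are called more often, these shares were 16.2% and 10.9%. Haem oxygenase (Hmox1), which is also a marker of red pulp macrophages, gave 709 and 1343 counts (1.70, 1.56 to 1.87), and the exporter Abcc4 gave 29 and 52 (1.61, 1.01 to 2.64). Malic enzyme (Me1), which forms NADPH in lipid-synthesising tissue, was lower with 67 and 31 counts (0.416, 0.263 to 0.646). Summed adipocyte markers had a ratio of 0.649, and their part in the result was not tested. The genes of this list with the most counts over both libraries were the ferritin heavy chain Fth1 with 6249 and 8649 counts (1.246, 1.21 to 1.29) and transaldolase (Taldo1) with 873 and 1207 (1.24, 1.14 to 1.36).

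A broad list of other genes of glutathione metabolism, which also takes in genes of other functions such as Alox5ap, was mixed. Of 32 such genes 25 were measured, with a median log2 ratio of 0.16. The interval lay above 1 for 4 (16.0%, against 9.13% of all genes) and below 1 for 3 (12.0%, against 6.57%). Alox5ap, which presents arachidonic acid to 5-lipoxygenase in leukocytes, gave 113 and 264 counts (2.10, 1.68 to 2.64). Cystathionine beta-synthase (Cbs), which provides cysteine, gave 19 and 6 (0.284, 0.0929 to 0.740), and Chac1, which degrades glutathione, gave 17 and 6 (0.318, 0.103 to 0.844). The genes with the most counts over both libraries were Mat2a (508 and 547 counts, 0.969) and Clic4 (376 and 456, 1.09). The glutamine transporter Slc1a5, named after its values had been seen, had nearly as many and was lower with 448 and 378 counts (0.759, 0.660 to 0.873). The last list held 38 other thioredoxin and glutaredoxin genes together with selenoprotein and further redox genes. Of these, 37 were measured with a median log2 ratio of 0.05. The interval of 5 lay above 1 (13.5%) and of 2 below 1 (5.41%), close to the 9.13% and 6.57% of all genes. None of the 5 is a thioredoxin or glutaredoxin gene by name. Selenom, a selenoprotein of the endoplasmic reticulum, was 1.51-fold higher (1.11 to 2.07) with 69 and 116 counts. The thioredoxin inhibitor Txnip gave 1087 and 1107 counts (0.917, 0.842 to 0.997) and Selenof 529 and 730 (1.24, 1.11 to 1.39).

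Cell type markers differed between the libraries alongside these genes. Summed markers of red pulp macrophages went from 3302 to 5135 CPM (1.48, 16 of 16 genes above 1), and those of neutrophils from 1583 to 4081 CPM (2.45, 17 of 17 above 1). Erythroid markers had a summed ratio of 1.11. T cell markers had a summed ratio of 0.760, with 15 of 16 below 1, and B cell markers one of 0.843, with 11 of 11 below 1. Hepatocyte markers, which were sparse at 426 and 262 CPM in sum, had a summed ratio of 0.585 (0.533 to 0.642), with 14 of 15 measured genes below 1. Of these 5 splenic lists, all genes had counts in the table except for the erythroid list, of which 16 of 17 genes were found there. For the plasma cell markers used above, 8 of 9 genes were found. The part of these cell types in the differences of the antioxidant genes was not tested.

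The direction of the whole set did not depend on the scaling, while calls at its edges did. Over 6 alternative scalings the median log2 ratio of the members ranged from 0.22 to 0.34, and that of all genes from -0.0036 to 0.11. A scaling shifts all log2 ratios by the same amount. The distance between these medians was therefore fixed, and its constancy is no support. Members at least 1.5-fold higher numbered 3 with TMM factors and 6 with library totals, against 5 with the factors used here. Of all genes called at 1.5-fold, 54.4% were higher in APAP (475 against 398), compared with 68.8% by library totals (665 against 301) and 48.8% by TMM factors (424 against 445). The ratio of 6 members, Gclc, Gpx4, Gsta4, Gstp1, Gstt1 and Keap1, fell on either side of 1 with the scaling. For another 6, namely Gss, Gstm1, Gstp2, Gstz1, Nfe2l2 and Srxn1, the scaling decided whether the interval included 1.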

How the data were processed

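Splenic RNA pooled over the mice of each group was sequenced by massive analysis of cDNA ends (MACE), a 3′ end method in which counts are independent of transcript length. The authors removed duplicates by unique molecular identifiers, mapped to mm10 and counted with HTSeq. DESeq2 is also named in the submitters' processing notes. Not given in the sources used here are versions, annotation and the strand setting. All results start from the unnormalised counts that the authors deposited. Their table also holds a deposited column pair headed TPM, which proved to be CPM without division by length, and a deposited signal, the count over the size factor of its library. Another 3 deposited columns, of other values, hold means and were not used.

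Size factors were 0.949 for ctrl and 1.05 for APAP (DESeq2 1.42.0, R 4.3.3). Intervals are exact (Clopper-Pearson share of counts, 95%), computed with Python 3.11.15, numpy 2.4.6, pandas 2.3.3 and scipy 1.17.1. Figures used matplotlib 3.10.9. A gene was measured with at least 20 counts over both libraries. It was called 1.5-fold higher or lower if its ratio was at least 1.5 in that direction and its interval excluded 1. A count of 0 allowed up to 3 counts. With 1 library per group no p-value was given. Every member was named, and of the 3 further lists those members called 1.5-fold and the 2 with the most counts. Members and lists were chosen with earlier results of these data known. Alternatives were library totals with and without haemoglobin and immunoglobulin or pancreas genes, TMM and upper quartile factors (edgeR 4.0.16), protein-coding genes only, other count minimums and other thresholds. Gene positions, exon overlaps and shared 50-base words in the last 500 bases were taken from GENCODE M21. Promoters were RefSeq sequences of GRCm38.p6 matched by symbol, and 6 members (Gclc, Gsr, Gsta4, Gstt2, Prdx6 and Prdx6b) had none in the table used. The 3 pseudogenes that match the name rule were left out, as they are not protein-coding. The rules were tested on simulated counts that held counting error only. This could not show how they behave with differences between mice or preparations.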

Additional observations from a re-analysis of the deposited data

How the results depend on the processing

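Of the alternatives to the main values, 29 stayed close and 11 moved. The number of members at least 1.5-fold lower was 0 when library totals scaled the counts and 0 when haemoglobin and immunoglobulin genes were first taken out of those totals, because Gstz1 then missed the rule. The number at least 1.5-fold higher was 3 with TMM factors and 3 with upper quartile factors. With a threshold of 5/4 there were 15 higher and 3 lower members, and with at least 2 there were 1 higher and 0 lower. When the ratio had to exceed 3, no count minimum applied and 0 was replaced by 1, 0 were higher. Gstm3 alone passed as lower, on 4 counts in ctrl and 0 in APAP, too few to give it a direction. That number of lower members was rated as close although the gene was no longer Gstz1. The ratio of the summed counts of all members was 1.26 by library totals and 1.28 once haemoglobin and immunoglobulin genes had been taken out of them. Chosen after seeing the data were sums of Gpx4, Sod1 and Prdx1 with their pseudogenes, which left the intervals of Sod1 and Prdx1 above 1 and that of Gpx4 around 1. No paired analysis was possible because a pooled library stands alone in its group. Depth limits genes near 20 counts, for which a 1.5-fold difference lies within the interval.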
